A study of Homo sapiens with 27 samples.

Results

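The genes described here encode chemokines, most of which draw neutrophils or monocytes. From a list of 9 genes, 8 were found by Entrez gene ID among the 24566 rows of the count table: *CXCL1*, *CXCL2*, *CXCL3*, *CXCL5*, *CXCL8*, *CXCL16*, *CCL2* and *CCL20*. *CCL5* was not analysed here. Total RNA was sequenced from cultures of 2 human tumour lines, A431, an epidermoid carcinoma line with abundant EGFR, and MDA-MB-231, a mesenchymal-like breast carcinoma line, in 9 groups of 3 libraries, all at 48 h. A431 cells were left untreated, given a vehicle, given CKI (1 mg/ml), given doxorubicin, or given both of these agents. MDA-MB-231 cells were left untreated or given CKI at that dose, 5-FU (10 ug/ml), or the 2 agents together. CKI is Compound Kushen Injection, an extract of the herbs Kushen and Baituling, 5-FU (5-fluorouracil) is a pyrimidine analogue that blocks thymidylate synthesis, and doxorubicin intercalates in DNA and traps topoisomerase II. The make-up of the vehicle is not stated in the labels, which also do not settle which dose of doxorubicin these cultures received and hold no vehicle group for MDA-MB-231. Each line was grown without immune cells, so the libraries hold the mRNA of the chemokines and no measure of the cells they attract.

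As background, chemokines are small secreted proteins that bind receptors on leukocytes and set the direction in which these cells move. CXCL1, CXCL2, CXCL3, CXCL5 and CXCL8 (interleukin 8) carry the ELR motif and act through CXCR2, and CXCL8 also through CXCR1, the main chemokine receptors of neutrophils. CCL2 acts through CCR2 on monocytes, CCL20 through CCR6 on dendritic cells and lymphocytes, and CXCL16 is made as a membrane protein that ADAM10 can shed and that binds CXCR6. In epithelial and tumour cells the ELR genes and *CCL20* are classic targets of NF-kappa-B, the transcription factor switched on by IL-1 and TNF, and their mRNAs are short-lived, since proteins such as ZFP36 bind AU-rich elements in them and start their decay.

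The libraries held 17757206 to 22809339 counts, so that 3 counts corresponded to 0.132 to 0.169 CPM (counts scaled to library size, the unit of all levels here). All 8 epidermoid markers reached 1 CPM in every A431 group and all 7 mesenchymal markers in every MDA-MB-231 group. Markers of the other line were present too: 5 of the 7 mesenchymal markers reached 1 CPM in every A431 group and 3 to 6 of the 8 epidermoid ones in the MDA-MB-231 groups. The epidermoid markers summed to 7309 to 10830 CPM in A431 and 471.5 to 626.5 CPM in MDA-MB-231, and the mesenchymal ones to 666.3 to 2066 and 2773 to 4132 CPM. Over 8 leukocyte markers the sum in A431 was 8.89 to 10.8 CPM in untreated cells, 5 to 5.87 in the vehicle control and 7.29 to 10.3 under CKI, and it was higher under doxorubicin (20.5 to 21.3) and with both agents (19.4 to 21.2). It was 19 to 19.9 CPM in untreated MDA-MB-231 and 8.3 to 13.5 in its treated groups. Of the 8, 1 to 5 reached 1 CPM in the A431 groups and 2 in each MDA-MB-231 group, while *FCGR3B*, a marker of neutrophils, was at 0 counts in all but the doxorubicin groups. The part of other cells in the members' values was not tested. One library stood apart from its group: replicate 1 of untreated MDA-MB-231 differed from replicates 2 and 3 with a chi-square per degree of freedom of 70.8 and 81.8, against 2.65 between replicates 2 and 3. The labels do not say whether replicates were separate cultures, so p-values measure only the spread between these samples. A gene is called differentially expressed (DE) below where its adjusted p-value was under 0.05 and its log2 fold change over 1 in size.

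The ELR members lie together on chromosome 4. In GRCh37, the build of the count table, *CXCL8* occupies chr4:74606236-74609433 and *CXCL1* chr4:74735110-74737025 on the plus strand, and *CXCL5* chr4:74861359-74864394, *CXCL3* chr4:74902306-74904524 and *CXCL2* chr4:74962757-74964913 on the minus strand, each with 4 exons in its canonical transcript. *CXCL16* lies at chr17:4636828-4643223 on the minus strand, *CCL2* at chr17:32582293-32584227 and *CCL20* at chr2:228670455-228682280 on the plus strand. The exons of *CXCL16* overlap those of *MED11* and *ZMYND15* on the opposite strand, and those of *CXCL5* overlap a long non-coding RNA. The libraries did not record strand, so reads in these stretches cannot be assigned and both levels are uncertain. The longest run of identical bases between canonical transcripts was 97 for *CXCL2* and *CXCL3*, 77 for *CXCL1* and *CXCL2*, and 55 for *CXCL1* and *CXCL3*, and no stretch of 100 bases was shared by any pair of the 5 ELR genes.

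The promoters are shown because the ELR genes and *CCL20* are known targets of NF-kappa-B, whose pathway genes are followed below. The RefSeq table (GRCh38.p14) matched 6 of the 8 members. The 150 bases before each annotated start are printed on the gene's own strand, 5′ to 3′, with capitals for the kappa-B core GGAATTTCC and for matches, on either strand, to the longer NF-kappa-B consensus. They lie at chr4:73740419-73740568 (*CXCL8*, plus), chr4:73869243-73869392 (*CXCL1*, plus), chr4:74099196-74099345 (*CXCL2*, minus), chr4:74038690-74038839 (*CXCL3*, minus), chr4:73998678-73998827 (*CXCL5*, minus) and chr2:227813692-227813841 (*CCL20*, plus).
CXCL8: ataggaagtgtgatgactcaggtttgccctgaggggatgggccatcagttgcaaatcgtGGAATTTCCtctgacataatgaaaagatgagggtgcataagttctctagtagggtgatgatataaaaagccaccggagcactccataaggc
CXCL1: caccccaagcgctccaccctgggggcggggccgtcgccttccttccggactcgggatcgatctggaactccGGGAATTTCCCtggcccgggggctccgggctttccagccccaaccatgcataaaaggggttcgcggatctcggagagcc
CXCL2: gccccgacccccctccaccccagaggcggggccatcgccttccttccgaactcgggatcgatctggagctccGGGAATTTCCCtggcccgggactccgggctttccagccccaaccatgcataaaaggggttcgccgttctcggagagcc
CXCL3: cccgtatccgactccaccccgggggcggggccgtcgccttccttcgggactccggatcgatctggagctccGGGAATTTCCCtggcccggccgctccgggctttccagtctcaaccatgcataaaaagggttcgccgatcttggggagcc
CXCL5: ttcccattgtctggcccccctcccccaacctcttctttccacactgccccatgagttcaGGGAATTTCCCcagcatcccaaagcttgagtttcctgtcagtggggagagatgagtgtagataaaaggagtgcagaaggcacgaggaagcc
CCL20: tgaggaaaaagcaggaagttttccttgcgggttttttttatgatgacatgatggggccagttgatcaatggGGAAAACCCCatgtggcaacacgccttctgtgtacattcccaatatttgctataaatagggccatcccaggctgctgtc

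The core GGAATTTCC was present in the 5 ELR promoters, from -91 to -83 in *CXCL8*, -78 to -70 in *CXCL1* and *CXCL3*, -77 to -69 in *CXCL2* and -90 to -82 in *CXCL5*, counted back from the annotated start. Across windows of 300 bases (250 before the start and 50 after) it was found, on either strand, in 0.461% of the 35116 promoters in the table. In *CCL20* the capitals mark a match to the longer consensus at -79 to -70, which 11.3% of promoters held. In *CXCL1*, *CXCL2*, *CXCL3* and *CXCL5* the consensus overlaps the core and is not a separate element. An AP-1 motif (TGANTCA, found in 7.71% of promoters) was present in *CXCL8* alone among the 6, at -137 to -131, and TATAAA (11.5%) in *CXCL8* and *CCL20*. These are matches of letters and not measured binding.

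In the 3′ untranslated region of the canonical transcript, the pentamer ATTTA, the core of AU-rich elements, occurred 10 times in *CXCL2*, 9 times in *CXCL8*, 7 times in *CXCL3*, 6 times in *CXCL1*, 11 times in *CXCL5* and 3 times in *CCL20*, but 1 time each in *CXCL16* and *CCL2*. Per kilobase, *CXCL2* held 14 and *CXCL3* 10.4, against a median of 1.69 over 17472 genes with at least 100 bases of 3′ untranslated region. *CXCL16* held 1.03 per kilobase and *CCL2* 2.66.

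In untreated cells the lines differed in which chemokine was highest. Per kilobase of exon, *CXCL1* led in A431 with a mean of 82.4 CPM per kb, followed by *CXCL16* at 28.6, *CXCL8* at 14.1, *CXCL2* at 8.97, *CXCL3* at 2.35 and *CCL20* at 1.76. *CXCL8* led in MDA-MB-231 at 43 CPM per kb, followed by *CXCL2* at 32, *CXCL1* at 19.1, *CXCL3* at 2.12, *CCL2* at 1.56 and *CXCL16* at 1.38. The ranges of the 3 libraries did not overlap between neighbours in these orders, except for *CCL2* and *CXCL16* in MDA-MB-231. The orders use the merged length of all exons. Per kilobase of the longest transcript, *CCL20* (3.35) stood above *CXCL3* (3.17) in A431, and *CXCL16* (1.66) above *CCL2* (1.57) in MDA-MB-231. *CCL2* in A431, *CCL20* in MDA-MB-231 and *CXCL5* in both lines were near or below the level of 3 counts.

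Between the untreated lines 4 of the 5 members that were well detected in both were called DE, against 41.5% of the 14181 genes tested. *CCL2* and *CCL20* were also called, but each passed the filter on low counts only through the line where it is high, so neither is counted here. *CXCL16* stood at 72.2 to 86.9 CPM in A431 and 2.65 to 4.94 CPM in MDA-MB-231, a log2 difference of 4.33 ± 0.21 (SE, adjusted p = 9.9e-07). *CCL20* (log2 3.85 ± 0.38) and *CXCL1* (2.07 ± 0.15) were also higher in A431. *CCL2* (-2.89 ± 0.29), *CXCL2* (-1.88 ± 0.12) and *CXCL8* (-1.65 ± 0.13) were lower in A431, and *CXCL3* did not pass (0.11 ± 0.14, adjusted p = 0.50). With the A431 vehicle control as the reference instead, *CXCL8* and *CXCL2* changed sign, to 1.67 and 0.60, and *CXCL3* was called (1.92), against 40.9% of genes. The line and anything else that differed between the 2 sets of cultures cannot be told apart.

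**Figure D1:**
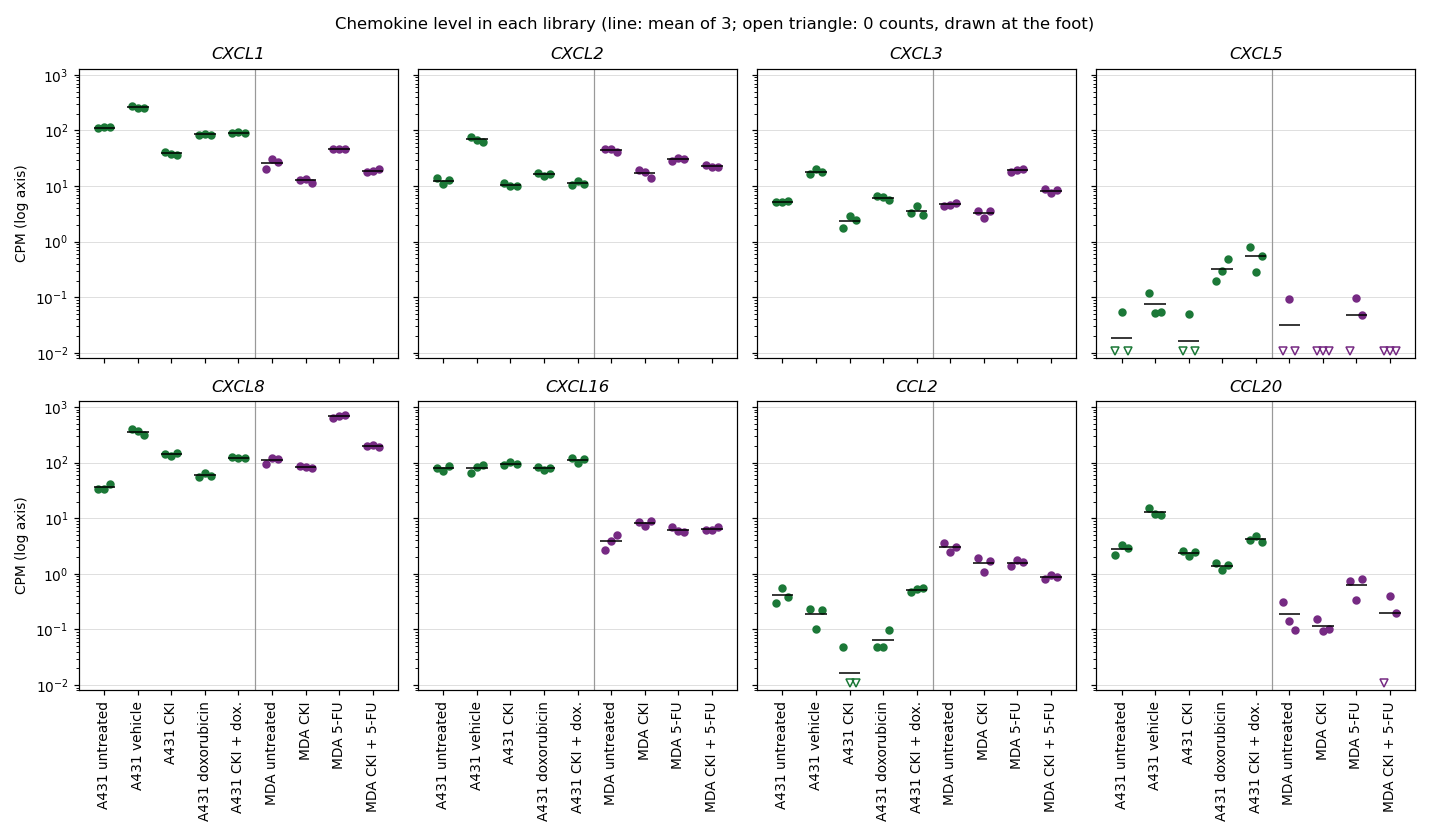
CPM (log axis) of the 8 chemokines in each of the 27 libraries, by group, with A431 in green, MDA-MB-231 in purple and a line at the mean of 3 libraries. *CXCL8* ranges from 33.45 CPM in an untreated A431 library to 711 CPM in a 5-FU library, the vehicle control is the highest A431 group for *CXCL1*, *CXCL2*, *CXCL3*, *CXCL8* and *CCL20*, and *CXCL5* stays under 1 CPM in every library.

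The vehicle control was compared with untreated A431 cells to show what the members did without CKI. All 4 well-detected ELR genes and *CCL20* rose, and *CXCL16* did not. *CXCL8* was at 33.45, 34.3 and 41.6 CPM in untreated cells and at 412, 366 and 313 CPM in the vehicle control, a 9.99-fold difference (log2 3.32 ± 0.10, adjusted p = 3.1e-17). *CXCL2* was at 13.8, 11 and 12.9 CPM and at 76.7, 68.8 and 63.2 CPM (5.55-fold, log2 2.47 ± 0.09, adjusted p = 2.1e-15). For both genes every vehicle library lay above every untreated one. *CCL20* was at 2.15, 3.31 and 2.96 CPM and at 15.3, 11.9 and 11.3 CPM (4.54-fold, log2 2.18 ± 0.16). *CXCL3* rose 3.51-fold (log2 1.81 ± 0.13), from a mean of 5.21 ± 0.15 to 18.3 ± 1.68 CPM (SD, n = 3). *CXCL1* rose 2.33-fold (log2 1.22 ± 0.06), from 112 ± 1.71 to 261 ± 13.3 CPM. *CXCL16* was at 80 ± 7.44 and 81 ± 13 CPM, with overlapping libraries (log2 0.02 ± 0.10, adjusted p = 0.91).

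Of the 7 members tested, 5 were called, all higher, against 2.54% of the 15881 genes tested in A431 (1.05% higher). Their median log2 fold change was 1.81, against 0.000 over all genes. Across genes, the difference between vehicle and untreated cells fell with GC content (Spearman rho -0.566) and rose with transcript length (0.279), and *CXCL8*, at 32.5% GC, was among the lowest, with 0.151% of 15843 genes at or below it. With offsets for GC content and length the 5 calls stood, with log2 values of 3.04 for *CXCL8*, 2.41 for *CXCL2*, 1.97 for *CCL20*, 1.87 for *CXCL3* and 1.17 for *CXCL1*. Vehicle replicates differed from each other more than most, with a chi-square per degree of freedom of 9.9 to 28.3, and the 5 calls stood with any 1 of the 6 libraries left out.

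CKI in A431 gave different answers against the 2 controls. Against untreated cells, *CXCL8* rose while *CXCL1* and *CXCL3* fell. *CXCL8* was at 145, 131 and 148 CPM under CKI, above all untreated libraries (3.88-fold, log2 1.96 ± 0.10, adjusted p = 2.3e-14). *CXCL1* was at 41.9, 38.1 and 35.9 CPM, below the untreated 110.3, 113 and 113 CPM (log2 -1.54 ± 0.06, adjusted p = 1.1e-15). *CXCL3* was at 1.79, 2.88 and 2.44 CPM, below the untreated 5.19, 5.08 and 5.36 CPM (log2 -1.14 ± 0.17, adjusted p = 4.1e-06). These 2 genes thus moved opposite to *CXCL8*. *CXCL2* (-0.25 ± 0.11) and *CXCL16* (0.26 ± 0.10) stayed under the fold threshold, with adjusted p = 0.045 and 0.022, and *CCL20* did not pass (-0.23 ± 0.20, adjusted p = 0.32). The 3 of 7 members called compare with 22.4% of genes. With the offsets *CXCL2* changed sign (0.04, adjusted p = 0.73) and *CXCL16* rose to 0.52, still under the fold threshold. *CXCL3* lost its call with the offsets (-0.87) and without replicate 1 of CKI (-0.96).

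Against the vehicle control all 5 members that the vehicle raised fell under CKI. *CXCL8*, the member that CKI raised against untreated cells, fell against the vehicle (log2 -1.37 ± 0.09, adjusted p = 3.9e-12), since its CKI level lay between those of the 2 controls. The log2 fold change was -2.95 ± 0.15 for *CXCL3*, -2.76 ± 0.06 for *CXCL1*, -2.72 ± 0.09 for *CXCL2* and -2.42 ± 0.16 for *CCL20*. In each of the 5, every CKI library lay below every vehicle library. *CXCL16* was at 90.3, 103 and 93.3 CPM under CKI and at 66.5, 84.5 and 91.9 CPM in the vehicle control, which overlap (0.24 ± 0.10, adjusted p = 0.034). The 5 of 7 called, all lower, compare with 19.5% of genes called and 8.22% called lower. The median log2 fold change of the members was -2.42, against 0.003 over all genes, and with the offsets the 5 calls stood, from -2.74 for *CXCL3* to -1.02 for *CXCL8*. The 2 CKI comparisons share their CKI libraries. The vehicle libraries in which the 5 members were high are also the control here, so the rise with vehicle and the fall under CKI are not independent. The labels do not say which control matches the CKI cultures.

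**Figure D2:**
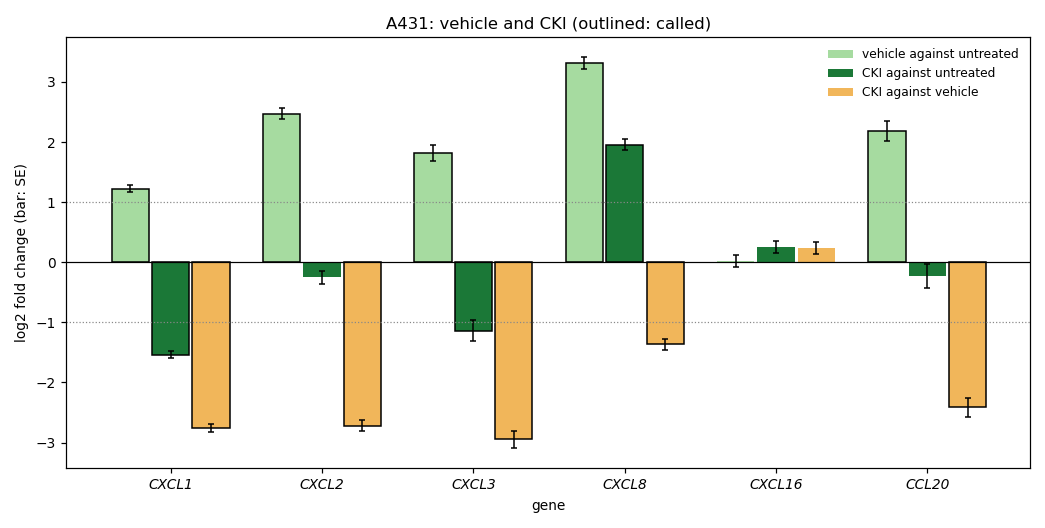
Log2 fold change (bar) with its standard error for 6 members in A431 cells, for the vehicle control against untreated cells, CKI against untreated cells and CKI against the vehicle control; outlined bars were called DE and dotted lines mark a log2 fold change of 1 in size. *CXCL8* is higher under CKI than in untreated cells (1.96) and lower than in the vehicle control (-1.37), while *CXCL1* and *CXCL3* are lower under CKI than in either.

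In MDA-MB-231, CKI lowered *CXCL2* and *CXCL1* and raised *CXCL16* against untreated cells. *CXCL2* was at 45.9, 46.4 and 41.9 CPM in untreated cells and at 19.1, 17.8 and 14.2 CPM under CKI (log2 -1.39 ± 0.10, adjusted p = 1.1e-06). *CXCL1* was at 20.3, 30.3 and 27.4 CPM and at 13.1, 13.3 and 11.4 CPM (-1.04 ± 0.13, adjusted p = 7e-05). Neither gene's groups overlapped. *CXCL16* was at 2.65, 3.97 and 4.94 CPM and at 8.57, 7.24 and 8.91 CPM (1.09 ± 0.18, adjusted p = 0.00069). *CXCL8* (-0.42 ± 0.08), *CXCL3* (-0.55 ± 0.13) and *CCL2* (-0.95 ± 0.21) passed the p threshold but not the fold threshold, with every CKI library below every untreated one. The 3 of 6 members called compare with 5.96% of 13999 genes tested for that line. The call of *CXCL16* was lost without replicate 1 of untreated cells (0.89), and that of *CXCL1* without replicate 2 of untreated cells (-0.92) or replicate 3 of CKI (-0.98), and without scaling factors (-0.97). *CCL2* gained a call without replicate 2 of untreated cells (-1.07) or replicate 1 (-1.13) or 3 (-1.003) of CKI.

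5-FU raised *CXCL8* and *CXCL3*. *CXCL8* was at 96.65, 122 and 115 CPM in untreated cells and at 648, 678 and 711 CPM under 5-FU, the highest level of any member in any group (6.1-fold, log2 2.61 ± 0.08, adjusted p = 1.1e-09). *CXCL3* was at 4.45, 4.62 and 5.04 CPM and at 17.9, 19.2 and 20.3 CPM (4.06-fold, 2.02 ± 0.12, adjusted p = 5.8e-08). The groups of both genes were far apart. *CXCL1* (0.82 ± 0.12) and *CXCL16* (0.67 ± 0.19) were higher and *CXCL2* (-0.57 ± 0.10) and *CCL2* (-0.92 ± 0.21) lower with adjusted p from 0.00011 to 0.0089, all under the fold threshold. *CXCL2*, which shares the longest runs of transcript sequence with *CXCL1* and *CXCL3*, thus went the other way from them. The 2 of 6 called compare with 13.3% of genes. *CCL2* gained a call (-1.03) without replicate 2 of untreated cells.

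CKI added to 5-FU brought *CXCL8*, *CXCL1* and *CXCL3* down from their 5-FU levels. *CXCL8* was at 201, 206 and 194 CPM with both agents, below all 5-FU libraries (log2 -1.76 ± 0.08, adjusted p = 1.9e-08). *CXCL1* was at 17.6, 18.6 and 20.2 CPM, against 45.5, 46.7 and 45.6 CPM under 5-FU (-1.29 ± 0.12, adjusted p = 5.3e-06). *CXCL3* was at 8.85, 7.55 and 8.39 CPM (-1.21 ± 0.11, adjusted p = 3.3e-06). In all 3 genes the combination lay below 5-FU alone in every library. *CXCL2* (-0.41 ± 0.10) and *CCL2* (-0.86 ± 0.25) passed the p threshold alone, and *CXCL16* did not pass (0.08 ± 0.18, adjusted p = 0.73). The 3 of 6 called, all lower, compare with 9.77% of genes called and 4.51% called lower, and the median log2 fold change of the members was -1.03, against 0.006 over all genes. Each of the 3 calls stood in all 14 alternatives that keep both thresholds.

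Against untreated cells the combination left 1 of 6 members called, *CCL2*, against 9.04% of genes. *CCL2* was at 3.55, 2.52 and 2.99 CPM in untreated cells and at 0.809, 0.949 and 0.873 CPM with both agents (log2 -1.77 ± 0.23, adjusted p = 5.6e-05), with every treated library lower. *CXCL8* (0.85 ± 0.08), *CXCL3* (0.81 ± 0.12) and *CXCL16* (0.75 ± 0.19) were higher and *CXCL1* (-0.47 ± 0.12) and *CXCL2* (-0.98 ± 0.10) lower, under the fold threshold. *CXCL2* gained a call with the offsets (-1.12) and without replicate 3 of untreated cells (-1.02). With the offsets the difference of *CXCL8* was 0.42.

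The interaction of CKI and 5-FU asks whether CKI changed a gene by a different factor with 5-FU present than without it. It was called for *CXCL8* (log2 -1.34 ± 0.11, adjusted p = 9.6e-06) and *CXCL16* (-1.01 ± 0.26, adjusted p = 0.010), 2 of 6 members, against 6.84% of genes. CKI moved *CXCL8* by -0.42 without 5-FU and by -1.76 with it, and *CXCL16* by 1.09 without and 0.08 with it. The call of *CXCL8* stood in all 19 alternatives that keep both thresholds. That of *CXCL16* was lost in 8 of them, among which were no filter on low counts (-0.996), the offsets (-0.87), and leaving out replicate 1 of untreated cells (-0.81), replicate 1 (-0.98) or 3 (-0.95) of CKI, replicate 1 of 5-FU (-0.90), or replicate 1 (-0.99) or 2 (-0.98) of the combination. *CXCL2* (0.98 ± 0.14) and *CXCL3* (-0.66 ± 0.17) passed the p threshold alone, and *CXCL2* gained a call without replicate 3 of untreated cells (1.03), replicate 1 (1.07) or 2 (1.01) of CKI or replicate 2 of 5-FU (1.02). For *CXCL1* (-0.25 ± 0.18, adjusted p = 0.31) and *CCL2* (0.10 ± 0.33, adjusted p = 0.85) no such difference was detected at this depth.

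**Figure D3:**
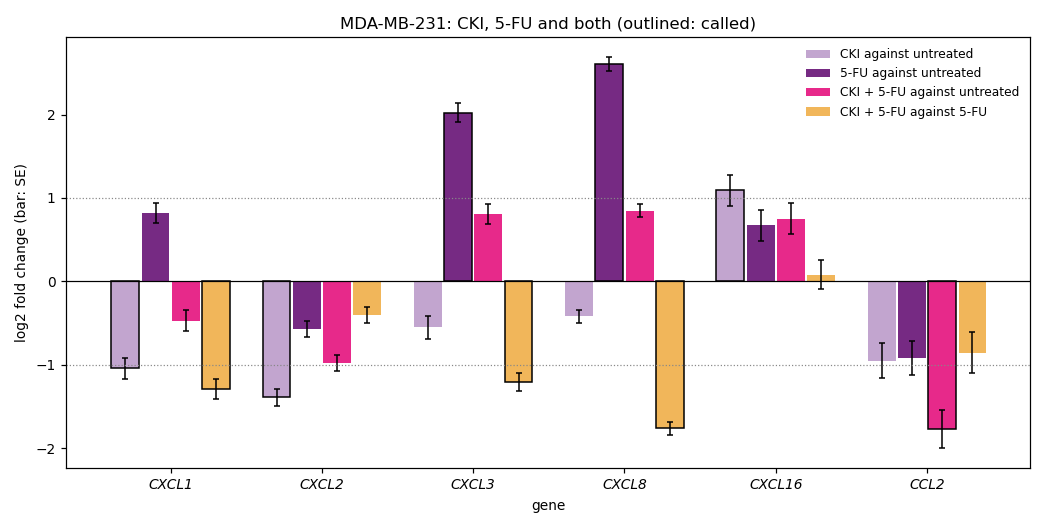
Log2 fold change (bar) with its standard error for 6 members in MDA-MB-231 cells, for CKI, 5-FU and both against untreated cells and for both against 5-FU; outlined bars were called DE and dotted lines mark a log2 fold change of 1 in size. *CXCL8* and *CXCL3* rise with 5-FU (2.61 and 2.02) and fall when CKI is added to it (-1.76 and -1.21), while *CCL2* is lower in each treated group.

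Doxorubicin changed few of the well-detected members in A431. *CXCL8* was at 56.3, 66.6 and 56.9 CPM, above all untreated libraries (log2 0.72 ± 0.10, adjusted p = 5.3e-07), and *CXCL1* at 83.6, 88.2 and 84 CPM, below all of them (-0.40 ± 0.06, adjusted p = 2.9e-06), both under the fold threshold. *CXCL2* (0.38 ± 0.10) passed the p threshold, and *CXCL3* (0.25 ± 0.15, adjusted p = 0.12) and *CXCL16* (0.01 ± 0.10, adjusted p = 0.94) did not. *CCL20* fell, from 2.15, 3.31 and 2.96 CPM to 1.55, 1.18 and 1.44 CPM (-1.02 ± 0.22, adjusted p = 0.00027). That call lay at the fold threshold and was lost with RLE factors (-0.93), with DESeq2 (-0.93), with at least 10 counts asked of every library (-0.85), with the compared groups alone (-0.94), and without replicate 2 (-0.88) or 3 (-0.99) of untreated cells or replicate 2 of doxorubicin (-0.92). *CXCL5* was also called (below) but passed the filter on low counts only through the doxorubicin groups and is not counted, so 1 of the other 6 members compares with 37.3% of genes, the second highest share of any comparison here. Set against the vehicle control instead, *CXCL1* (-1.62), *CXCL2* (-2.10), *CXCL3* (-1.56), *CXCL8* (-2.60) and *CCL20* (-3.20) were called lower, 5 of the 6, against 38.5% of genes, and 3 of them thereby changed sign.

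All levels in the doxorubicin groups depend on the scaling. Without TMM factors, which adjust library totals for their make-up, the median log2 difference between doxorubicin and untreated cells over all genes was 0.361, against 0.017 with them. *CXCL1* was then at 101.4, 102.9 and 98.58 CPM in untreated cells and at 95.59, 100.8 and 95.4 CPM under doxorubicin, which overlap (log2 -0.05, adjusted p = 0.43). *CXCL8* was called (1.06), *CCL20* was not (-0.67), and *CXCL2* stood at 0.72, *CXCL3* at 0.59 and *CXCL16* at 0.35. With CKI plus doxorubicin against untreated cells, where that median was 0.360, *CXCL1* (0.006, adjusted p = 0.94) and *CXCL2* (0.16, adjusted p = 0.20) changed sign and *CXCL8* (2.07) kept its call.

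CKI plus doxorubicin was compared with doxorubicin alone. *CXCL8* was at 125, 123 and 120 CPM with both agents, above all doxorubicin libraries (2.05-fold, log2 1.03 ± 0.09, adjusted p = 1.4e-09). *CCL20* was at 4.12, 4.78 and 3.67 CPM (3.01-fold, 1.59 ± 0.20, adjusted p = 3.8e-07), also above all of them. *CXCL16* (0.48 ± 0.10) was higher and *CXCL2* (-0.54 ± 0.10) and *CXCL3* (-0.79 ± 0.15) were lower under the fold threshold, and *CXCL1* did not pass (0.09 ± 0.06, adjusted p = 0.21). The 2 of 7 called compare with 14.9% of genes. *CXCL8* lost its call without replicate 1 (0.99) or 3 (0.999) of doxorubicin and with at least 10 counts asked of every library (0.99), since it lay at the fold threshold.

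Against untreated cells, the combination raised *CXCL8* (3.37-fold, log2 1.75 ± 0.10, adjusted p = 1.1e-13), 1 of 6 members against 35.5% of genes. *CXCL5* was called too but is not counted, for the reason given above. *CCL20* (0.58 ± 0.18) and *CXCL16* (0.49 ± 0.10) were higher and *CXCL1* (-0.31 ± 0.06) and *CXCL3* (-0.54 ± 0.16) lower, under the fold threshold, and *CXCL2* did not pass (-0.16 ± 0.11, adjusted p = 0.17). Set against the vehicle control, *CXCL1* (-1.53), *CXCL2* (-2.63), *CXCL3* (-2.35), *CXCL8* (-1.57) and *CCL20* (-1.61) were all called lower, 5 of the 6, against 33.3% of genes.

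The interaction of CKI and doxorubicin was called for *CXCL1* (log2 1.63 ± 0.09, adjusted p = 7.3e-13) and *CCL20* (1.82 ± 0.29, adjusted p = 1.1e-05), 2 of 7 members against 19.5% of genes. CKI moved *CXCL1* by -1.54 without doxorubicin and by 0.09 with it, and *CCL20* by -0.23 without and 1.59 with it. Both calls stood in all 20 alternatives that keep untreated cells as the control, and with the vehicle control, where 21.1% of genes were called, the values were 2.84 and 4.01. *CXCL8* (-0.92 ± 0.13, adjusted p = 2.6e-06) passed the p threshold, gained a call with the offsets (-1.01), without scaling factors (-1.06) and without replicate 3 of untreated cells (-1.02), and changed sign with the vehicle control (2.40). *CXCL2*, *CXCL3* and *CXCL16* did not pass, with adjusted p of 0.099, 0.22 and 0.18.

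**Figure D4:**
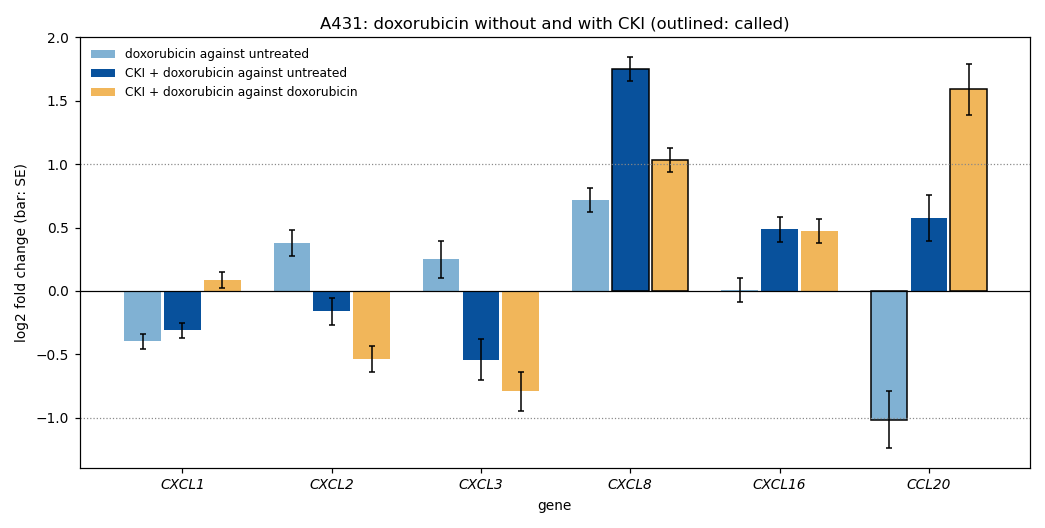
Log2 fold change (bar) with its standard error for 6 members in A431 cells, for doxorubicin and CKI plus doxorubicin against untreated cells and for the combination against doxorubicin; outlined bars were called DE and dotted lines mark a log2 fold change of 1 in size. *CXCL8* stands at 0.72 with doxorubicin and 1.75 with both agents, and *CCL20* moves from -1.02 to 0.58.

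The same CKI dose met both lines, so its effect against untreated cells could be compared between them. The difference between the lines in the CKI effect was called for *CXCL8* (log2 2.38 ± 0.14, adjusted p = 5.2e-08) and *CXCL2* (1.15 ± 0.17, adjusted p = 9e-05), 2 of the 5 members well detected in both lines, against 18.5% of genes. *CCL2* was called as well (-3.23 ± 0.94, adjusted p = 0.013), but it passed the filter on low counts only through MDA-MB-231, where it is high, and is not counted. For *CXCL8* the A431 effect was 1.96 and the MDA-MB-231 effect -0.42. *CXCL1* fell in both lines, by 1.54 and 1.04 on the log2 scale, and the difference of these effects (-0.49 ± 0.17, adjusted p = 0.027) was under the fold threshold. *CXCL16* (-0.83 ± 0.21) was also under it and gained a call without replicate 3 of untreated MDA-MB-231 (-1.03). *CXCL3* (-0.58 ± 0.24, adjusted p = 0.067) and *CCL20* (0.41 ± 0.63, adjusted p = 0.65) did not pass. These values turn on the A431 control: with the vehicle control, *CXCL8* was at -0.94 and not called, *CXCL2* was called at -1.32, *CXCL1* (-1.71, adjusted p = 9.5e-06) and *CXCL3* (-2.39, adjusted p = 8.3e-06) gained calls, against 14.5% of genes, and *CCL2* (-2.09, adjusted p = 0.13) was no longer called. MDA-MB-231 has no vehicle group to set beside it.

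The low members were read from their counts. *CXCL5* held 0 or 1 count in each untreated and CKI library of A431 and passed the filter on low counts only through the doxorubicin groups. Its counts summed to 1 in untreated cells, 4 in the vehicle control, 1 under CKI, 20 under doxorubicin and 34 with both agents. The CPM ratio of doxorubicin to untreated cells was 16.6, with an exact 95% interval of 2.65 to 687 that covers counting error only, and that of the combination was 27.7 (4.64 to 1124). The edgeR calls were log2 3.67 ± 0.97 (adjusted p = 0.0015) and 4.40 ± 0.86 (adjusted p = 7.5e-05), and over the alternatives that kept *CXCL5* they reached 5.68 and 6.41, since 1 count made up the untreated group. The combination did not differ from doxorubicin beyond the spread (0.73 ± 0.46, adjusted p = 0.18). In MDA-MB-231 *CXCL5* summed to 2 counts in untreated cells, 3 under 5-FU and 0 in the other 2 groups.

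*CCL2* in A431 summed to 21 counts in untreated cells, 10 in the vehicle control, 1 under CKI, 4 under doxorubicin and 32 with both agents. The CPM ratio to untreated cells was 0.0405 under CKI (95% interval 0.000979 to 0.252) and 0.158 under doxorubicin (0.0394 to 0.468), and the ratio of the combination to doxorubicin was 7.85 (2.78 to 30.6). It did not pass the filter on low counts in A431. With no filter, and with any 1 of the compared libraries left out, it was tested and called lower in CKI and in doxorubicin than in untreated cells. With a library left out it passed the filter only through groups where it is high, such as CKI plus doxorubicin (10 to 11 counts per library). These calls are therefore not counted. *CCL2* in MDA-MB-231 was lower in each treated group at 94, 100 and 56 summed counts under CKI, 5-FU and both, against 181. *CCL20* in MDA-MB-231 summed to 11 counts in untreated cells, 7 under CKI, 40 under 5-FU and 13 with both agents, and its CPM ratio of 5-FU to untreated cells was 3.49 (1.76 to 7.55). In these bulk libraries fewer cells that make a chemokine and less of its mRNA per cell cannot be told apart.

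Summed per kilobase of exon, the 8 members came to 139 ± 4.95 CPM per kb in untreated A431 cells (SD, n = 3), 428 ± 29.6 in the vehicle control, 127 ± 2.17 under CKI, 130 ± 1.84 under doxorubicin and 167 ± 2.58 with both. CKI thus left a sum near that of untreated A431 cells with other members in the lead: *CXCL1* made up 59.6% ± 2 of the untreated sum, and *CXCL8* led with 42.9% ± 2.4 under CKI. In MDA-MB-231 the sum was 99.3 ± 8.8 in untreated cells, 58.9 ± 3.36 under CKI, 330 ± 13.5 under 5-FU and 114 ± 1.44 with both. *CXCL8* led in all 4 of these groups, with 43.2% ± 1.58 of the sum in untreated cells and 79.6% ± 0.55 under 5-FU.

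**Figure D5:**
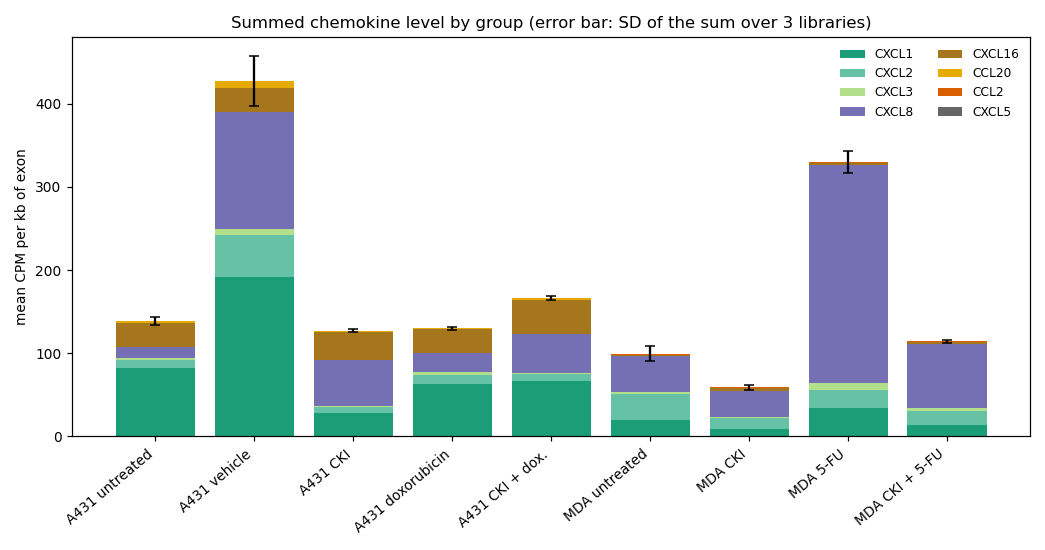
Mean CPM per kb of exon of the 8 members, stacked by group, with an error bar for the SD of the sum over 3 libraries. The sum is highest in the A431 vehicle control (428) and under 5-FU in MDA-MB-231 (330), where *CXCL8* takes most of the bar.

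*CXCL16*, the membrane-bound member, stood apart from the ELR genes. In A431 it ranged from 66.5 to 121 CPM over all 15 libraries. Without TMM factors its mean was 71.9 CPM in untreated cells and 91.7 CPM under doxorubicin, against 80 and 80.4 CPM with them. Of its overlapping neighbours, *MED11* was at 6.89 ± 0.37 unscaled CPM in untreated A431 cells and 6.62 ± 0.59 under CKI. *ZMYND15* was at 2.33 ± 0.22 in untreated cells, 1.23 ± 0.27 under CKI and 12.6 ± 0.53 under doxorubicin. In MDA-MB-231, where *CXCL16* is low, *MED11* was higher than *CXCL16*, at 14.2 ± 2.8 unscaled CPM in untreated cells and 20.2 ± 0.63 under CKI, and the part of its reads in the rise of *CXCL16* under CKI was not tested. Of 5 genes that govern shedding, doxorubicin lowered 3, *ADAM10* (the main sheddase, log2 -1.28 ± 0.06), *TIMP3* and *RHBDF2*, against 14.3% of genes. The same 3 fell with 5-FU (*ADAM10* -1.06 ± 0.08), against 7.31% of genes, and neither agent raised any. CKI in A431 raised 1 against untreated cells, *ADAM17* (1.70 ± 0.08), against 12% of genes. Against the vehicle it raised 2, *ADAM17* (1.26 ± 0.08) and *RHBDF1*, against 11.3%, and it lowered none in either comparison. CKI alone in MDA-MB-231 lowered 1, *TIMP3*, against 2.21% of genes, and raised none.

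The NF-kappa-B pathway, which governs most members, was followed through 19 genes. The vehicle raised 3 of them, *NFKBIA* (log2 1.36 ± 0.05), *NFKBIZ* (3.30 ± 0.09) and *TNFAIP3* (3.35 ± 0.06), inhibitors or modulators that NF-kappa-B itself induces, and lowered none, with a median over the list of 0.01. CKI in A431 raised *NFKBIZ* (2.13 ± 0.09) and *TNFAIP3* (2.03 ± 0.05) against untreated cells and lowered both against the vehicle (-1.16 ± 0.08 and -1.31 ± 0.05). This is the order of the 3 groups seen for *CXCL8* but not for the other members that the vehicle raised. Of those, *CXCL1* (-1.54) and *CXCL3* (-1.14) fell under CKI against untreated cells, and *CXCL2* (-0.25) and *CCL20* (-0.23) did not rise. *CYLD*, a deubiquitinase that restrains the pathway, was instead higher under CKI than in either control (1.30 ± 0.08 and 1.07 ± 0.08). In MDA-MB-231, 5-FU raised 6 of 19, among them the subunits *REL* (1.30 ± 0.15) and *RELB* (1.39 ± 0.13) and also *TNFAIP3* (2.19 ± 0.13), lowered none, and moved the median of the list to 0.75 against -0.004 over all genes. CKI added to 5-FU lowered 2, *TNFAIP3* (-1.75 ± 0.13) and *TRAF1* (-1.23 ± 0.07), and raised none. CKI alone lowered *NFKBIZ* in MDA-MB-231 (-1.13 ± 0.09) and called no other gene of the list. Doxorubicin raised 2 and lowered 2, and CKI added to it raised 5 and lowered none. Of all genes, 1.05% were called higher and 1.5% lower with the vehicle. For CKI in A431 the shares were 12% and 10.4% against untreated cells, and 11.3% and 8.22% against the vehicle. The 3 of 19 that CKI raised against untreated cells and the 2 that it lowered against the vehicle lie near these shares. With 5-FU they were 6.01% and 7.31%, with CKI added to it 5.26% and 4.51%, and with CKI alone in MDA-MB-231 3.76% and 2.21%. With doxorubicin they were 23% and 14.3%, and with CKI added to it 6.89% and 8.03%.

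Of 20 inducing cytokines and receptors, 18 were tested in MDA-MB-231 and 19 in A431. The shares of all genes just given are the reference for this list and for the lists in the next paragraph. 5-FU raised 6, among them *IL1A* (log2 3.49 ± 0.14) and *IL1B* (1.78 ± 0.12), and lowered none. The 6 include the antagonist *IL1RN*, with 2 summed counts in untreated cells and 57 under 5-FU. *IL1RN* passed the filter on low counts only through treated groups, where it is higher, so its call does not count. CKI added to 5-FU lowered 4, *IL6* (-1.31 ± 0.07), *IL6R* (-1.96 ± 0.25), *CSF2* (-1.14 ± 0.09) and *CSF3* (-3.70 ± 0.14), and raised none. The vehicle raised 5 in A431, *IL1A* (2.02 ± 0.08), *IL1B* (1.53 ± 0.06), *TNF* (2.19 ± 0.40) and *LIF* (1.16 ± 0.06) among them, and lowered none. *TNF* summed to 16 counts in untreated cells and 80 in the vehicle control. It passed the filter in A431 only through groups where it is higher. Its calls in that line therefore do not count, though the numbers of genes given here include it. CKI raised 5 against untreated A431 cells, among them *IL1B* (1.22 ± 0.06), *IL1R1* (1.18 ± 0.07), *TNFRSF1B* (1.51 ± 0.28) and *LIF* (1.37 ± 0.06). *TNFRSF1B* was low, at 24 summed counts in untreated cells and 81 under CKI. CKI lowered 2, *CSF3* (-1.98 ± 0.84) and *TLR4* (-2.02 ± 0.65), both with wide standard errors. The number lowered lies near the share of all genes called lower (10.4%). CKI lowered *IL1A* (-1.16 ± 0.08) and *TNF* (-1.31 ± 0.34) and 3 others against the vehicle and raised 1. Doxorubicin raised 4 and lowered 3, *IL1A* (-1.30 ± 0.08) and *IL1B* (-1.87 ± 0.07) among the latter. These counts lie near the shares of all genes called higher (23%) and lower (14.3%). CKI added to doxorubicin raised 8 of the list, *IL1A* (1.34 ± 0.08) and *IL1B* (1.66 ± 0.07) among them, and lowered 1.

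Of 10 AP-1 and C/EBP factors, the partners of NF-kappa-B at the *CXCL8* promoter, *FOS* (log2 2.503 ± 0.089), *FOSB* (4.46 ± 0.12), *JUN* (1.43 ± 0.09) and *ATF3* (5.16 ± 0.12) rose with the vehicle. The same 4 rose under CKI against untreated A431 cells (2.64, 4.86, 1.90 and 4.81), where 1 further factor rose and 1 fell, and between CKI and vehicle they differed by 0.14, 0.41, 0.47 and -0.34, under the fold threshold. 5-FU lowered *FOS* (-3.80 ± 0.13) and *FOSB* (-3.05 ± 0.23) and raised *ATF3* (1.34 ± 0.07) in MDA-MB-231, where *CXCL8* rose. Of 9 genes of AU-rich mRNA decay and stability, the vehicle raised 1, *ZFP36* (2.02 ± 0.07), and lowered none. CKI against untreated A431 cells raised 2, *ZFP36* (1.67 ± 0.07) and *ZFP36L1*, and lowered 2, *KHSRP* and *HNRNPD*. The latter 2 were also lower under CKI than in the vehicle control, where none was higher. Doxorubicin lowered 2, *ELAVL1* and *HNRNPD*, and raised none. With 5-FU no gene of this list was called, and *ZFP36* stood at -0.93, under the fold threshold.

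Other chemokines were followed through 27 genes, of which 5 were tested in MDA-MB-231 and 11 in A431. CKI added to 5-FU lowered all 5 tested in MDA-MB-231, but *CXCL10* passed the filter on low counts only through the 5-FU group, where it is high. It summed to 28 counts in untreated cells, 50 under 5-FU and 15 with both agents, and is not counted. The others were all called lower, against 4.51% of genes. *CCL26* among them was low too, at 147 counts under 5-FU and 57 with both agents. In A431, *CXCL6*, another ELR chemokine, fell with doxorubicin (log2 -2.20 ± 0.21) and with CKI against untreated cells (-1.54 ± 0.19) and the vehicle (-1.35 ± 0.19), and *CXCL17* rose under CKI (3.01 ± 0.15 and 2.63 ± 0.14). Doxorubicin raised *CXCL9* (6.20 ± 0.36) and *CXCL10* (4.60 ± 0.13), which attract T cells. *CXCL9*, *CXCL14* and *CCL17* were called higher but summed to 5, 3 and 9 counts in untreated cells and 471, 51 and 107 under doxorubicin. They passed the filter on low counts only through the doxorubicin groups. The number called of the 11 is therefore not set against a share of genes. Doxorubicin raised 13 of 15 interferon response genes and lowered none. In the comparison of the untreated lines, which holds no doxorubicin group, only 13 of the 15 were tested. Some of the 15 may thus have passed the filter only through the doxorubicin groups, which was not tested. For this reason the number raised is not set against a share of genes either. The receptors of the members were scarce: the highest group mean was 1 CPM for *CXCR1* and 0.767 CPM for *CXCR2*, both in A431 under CKI plus doxorubicin, and *CCR6* was at 0 counts in all but 1 library.

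Levels of the members were compared across the libraries of a line as log2 CPM, as a description in which treatment groups and libraries are shared. In A431, over 15 libraries, *CXCL3* followed *CXCL2* (Pearson r 0.927) and *CXCL1* (0.920). In MDA-MB-231, over 12 libraries, *CXCL3* and *CXCL8* were closest (0.985), and *CXCL16* ran against *CXCL2* (-0.881). The gene outside the list with the pattern most like *CXCL8* was *MAP3K8* in A431 (0.964) and *DPF2* in MDA-MB-231 (0.992). For *CXCL1* it was *SNHG5* (0.975) and *PES1* (0.993), for *CXCL2* *DUSP2* (0.951) and *NET1* (0.976), for *CXCL3* *KIF9* (0.953) and *NCBP3* (0.991), and for *CXCL16* *CTDP1* (0.918) and *BLTP2* (0.976). *GTF2A1* was most like *CCL20* in A431 (0.967) and *SLCO2A1* most like *CCL2* in MDA-MB-231 (0.979).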

How the data were processed

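Members and gene lists were chosen with earlier results of these data known. The authors deposited 1 table of raw counts per gene (Entrez ID) for 27 libraries. Per the labels, the submitters' processing notes name Trim Galore 0.3.7, STAR 2.5.3a, hg19 and edgeR. The counting tool is not given in the sources used here. Columns of values were all matched to a sample by name. Symbols came from RefSeq by Entrez ID, and exon lengths, GC content and positions from GENCODE release 44 on GRCh37. CPM was scaled by TMM within a line. Tests were edgeR 4.0.16 quasi-likelihood fits (filterByExpr, TMM) over all groups of a line, with Benjamini-Hochberg adjustment over all genes tested. 14 comparisons were made. Cross-line comparisons used the untreated or CKI libraries of both lines. Alternatives were RLE factors, DESeq2 1.42.0, no filter, at least 10 counts in every library, adjusted p alone, replicate block, offsets for GC content and transcript length (lowess span 0.3), compared groups alone, the A431 vehicle control as reference, leaving out each replicate, and, chosen after seeing the data, no scaling factors. 1 marker of the leukocyte list is not reported here. Low counts were compared by their ratio with an exact 95% interval, which covers counting error only. The scripts were tested on simulated data. Named were all members and, per list and comparison, at most 4 called genes in list order, and the gene of most like pattern. *ATF3* under CKI, *ZFP36* under 5-FU, *MED11* and *ZMYND15* and the receptors *CXCR1*, *CXCR2* and *CCR6* were chosen after their values were seen. Replicates all differed by more than counting error (chi-square per degree of freedom at least 1.83).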

Additional observations from a re-analysis of the deposited data

Results flagged for a closer look

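For 7 member results, the effect of CKI differed between 2 settings by a test of the difference itself (edgeR quasi-likelihood, adjusted p under 0.05 and a log2 difference over 1 in size). In MDA-MB-231, the CKI effect on *CXCL8* was lower with 5-FU than without it by a log2 difference of -1.34, and that on *CXCL16* by -1.01. The call of *CXCL16* held in only 11 of 19 alternatives, and its value was -0.81 without replicate 1 of untreated cells. In A431, the CKI effect on *CXCL1* was higher with doxorubicin than without it by 1.63, and that on *CCL20* by 1.82. Between the lines, the CKI effect against untreated cells was higher in A431 for *CXCL8* by 2.38 and for *CXCL2* by 1.15, and lower for *CCL2* by -3.23, which passed the filter on low counts only through MDA-MB-231 and in A431 rests on 21 counts in untreated cells and 1 under CKI. With the vehicle control as the A431 reference the between-line values were -0.94, -1.32 and -2.09, so that *CXCL8* and *CXCL2* changed sign, and the adjusted p of *CCL2* was 0.13.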

How the results depend on the processing

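The counts of members called are compared here with those of the comparisons above. In this section they include *CXCL5* and *CCL2* wherever these were tested, also where the counts above leave them out. A count with no share of all genes beside it comes from a setting for which that share was not worked out. Counting by adjusted p alone gave 6 members for CKI (36.2% of genes pass), 5-FU (57.1%) and CKI plus 5-FU (49.7%) against untreated MDA-MB-231, 5 for the combination against 5-FU (50.4%) and 4 for the CKI by 5-FU interaction (31.4%). In A431 it gave 5 for CKI (67%) and 5 for doxorubicin (80.6%) against untreated cells, 6 for CKI plus doxorubicin against untreated cells (79.2%) and 5 against doxorubicin (63.6%), and 5 for the line by CKI interaction (47%), since this rule drops the fold threshold. The offsets for GC content and length gave 2 members for CKI plus 5-FU against untreated cells (8.36% of genes) and 1 for the CKI by 5-FU interaction (7.01%). No filter on low counts gave 1 for that interaction. For doxorubicin against untreated cells, RLE factors and DESeq2 gave 1, and at least 10 counts in every library and the compared groups alone gave 0 (by edgeR, where the adjusted p alone gave 5 in the full fit), since *CXCL5* is then not tested and *CCL20* falls under the fold threshold. The last 2 gave 1 for CKI plus doxorubicin against untreated cells, and the count minimum gave 1 against doxorubicin.

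Leaving out 1 library gave 2 to 4 members for CKI against untreated MDA-MB-231, 2 to 3 for 5-FU, 1 to 2 for CKI plus 5-FU, and 3 to 4 against 5-FU. It gave 1 to 3 for the CKI by 5-FU interaction, 3 to 4 for CKI and 2 to 3 for doxorubicin against untreated A431 cells, 2 to 3 for CKI plus doxorubicin against doxorubicin, and 2 to 4 for the CKI by doxorubicin interaction. It gave 6 for CKI against the vehicle control, where *CCL2* passed the filter only through groups where it is high, so the added call is not counted. The numbers for doxorubicin against untreated cells include *CXCL5*, which the results above leave out. The sign of some members that passed no threshold turned: *CCL2* in the CKI by 5-FU interaction (-0.12 to 0.28), *CXCL16* with the vehicle (-0.076 to 0.144), *CXCL16* with doxorubicin (-0.073 to 0.060), *CXCL5* under CKI in A431 (-2.01 to 1.85), *CXCL5* in the CKI by doxorubicin interaction (-1.12 to 2.74), and *CCL20* in the line by CKI interaction (-0.175 to 0.696).

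With the vehicle control as the A431 reference, 6 members were called for doxorubicin (38.5% of genes), 6 for CKI plus doxorubicin (33.3%), *CXCL5* among both, and 5 for the CKI by doxorubicin interaction (21.1%). Values changed sign for *CXCL2* (-2.10), *CXCL3* (-1.56), *CXCL8* (-2.60) and *CXCL16* (-0.011) with doxorubicin, for *CXCL8* (-1.57) and *CCL20* (-1.61) with CKI plus doxorubicin, and for *CXCL2* (2.19) and *CXCL8* (2.40) in their interaction. They also changed sign for *CXCL2* (0.60) and *CXCL8* (1.67) between the lines, and for *CXCL2* (-1.32), *CXCL8* (-0.94) and *CCL20* (-1.78) in the line by CKI interaction. Other reversals were of values near 0: *CXCL16* with the vehicle under RLE factors (-0.002), DESeq2 (-0.003) and the compared groups alone (-0.012), *CXCL16* with doxorubicin with no filter (-0.048) and with the offsets (-0.027), and, with the offsets, *CXCL2* (0.039) and *CCL20* (0.002) under CKI in A431. A fit without scaling factors, chosen after seeing the data, turned *CXCL1* (0.006) and *CXCL2* (0.155) with CKI plus doxorubicin against untreated cells. It moved the calls over all genes, higher and lower, from 842 and 1024 to 1142 and 768 for 5-FU, from 600 and 666 to 849 and 505 for CKI plus 5-FU, from 3650 and 2275 to 4725 and 1313 for doxorubicin, from 3446 and 2187 to 4490 and 1307 for CKI plus doxorubicin (each against untreated cells), and from 1360 and 1732 to 1028 and 2091 for the CKI by doxorubicin interaction. The cause of these changes was not tested.

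Samples with the same replicate number did not deviate together (mean r -0.004 in A431, -0.038 in MDA-MB-231), so the numbers do not pair them. With the replicate block, 2 comparisons gave 815 DE genes against 835 (CKI, MDA-MB-231) and 386 against 404 (vehicle), and no member's call changed. The block could not be fitted for the 6 untreated libraries. Depth limits *CXCL5*, *CCL2* in A431 and *CCL20* in MDA-MB-231.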
